A study of Mus musculus with 24 samples.

Results

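The 10 genes described here encode the mouse aldehyde dehydrogenases that work mainly outside retinoid metabolism: Aldh1b1, Aldh1l1, Aldh2, Aldh3a2, Aldh3b1, Aldh5a1, Aldh6a1, Aldh7a1, Aldh8a1 and Aldh9a1. They were taken by name from 18194 genes that had a probe set annotated to that gene alone, and for each the brightest of its probe sets, by the mean of the 24 arrays, was used. All 10 were measured, 5 of them by 1 probe set and 5 by several. Their messenger RNA was followed in the liver of male B6C3F1 mice, a hybrid strain used in carcinogenicity testing, that were 7 to 10 weeks old on arrival. The compound was diethylhexylphthalate (DEHP), which softens plastics and makes peroxisomes multiply in rodent liver; it was given in corn oil by oral gavage at 1150 mg/kg every 24 h over 3 days, and the other mice had corn oil alone. Liver was sampled at 2, 8, 24 and 72 h, which gave 8 groups with 3 Affymetrix arrays each. One sample number in the labels, 14, is carried by an array of each 8 h group (DEHP replicate 2 and corn oil replicate 3), and the 2 arrays were kept as labelled. No genetic change is named for any group, and in the labels the groups differ by compound and time. With a dose every 24 h, later groups may have had more doses, so time and number of doses cannot be told apart. The design text names 6 mice, which is fewer than the 24 arrays, without saying whether that number is per group or how mice relate to arrays. Whether the 3 arrays of a group are separate animals is therefore not known, and every p-value below measures the spread between these samples, which may be technical.

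Aldehyde dehydrogenases oxidise aldehydes to acids with NAD or NADP, and thereby clear reactive aldehydes that arise from lipids, alcohol and amino acids. The family is divided by cell compartment. Aldh2, Aldh1b1, Aldh5a1 and Aldh6a1 are mitochondrial. Aldh3a2 is the fatty aldehyde dehydrogenase, anchored in the endoplasmic reticulum with a splice form in peroxisomes. Aldh1l1, Aldh8a1 and Aldh9a1 are cytosolic, Aldh3b1 is cytosolic and membrane-bound and was grouped with them, and Aldh7a1 is found in the cytosol, the mitochondria and the nucleus. Peroxisome proliferators act in rodent liver through the nuclear receptor PPAR alpha, which pairs with RXR on DNA and raises genes of fatty acid oxidation, and Aldh3a2 is a known target of it.

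Values are log2 signals of the arrays, and a difference is DEHP minus corn oil of the same time on the log2 scale, with its SE from a linear model over all 24 arrays (limma). A gene was called where the Benjamini-Hochberg adjusted p over 18194 genes was under 0.05. Array medians lay between 6.46 and 6.55, and arrays of a group correlated with r from 0.989 to 0.996 across probe sets. Precision is limited by the number of arrays. Of 8 hepatocyte markers 7 were measured, and their mean log2 signal lay between 13.66 and 13.92 on every array, with 1 of 7 higher at 8 h and none lower. Arrays that stood apart were DEHP 2 h replicate 1, where exocrine pancreas markers averaged 10.74 against 7.64 and 7.55 on the other DEHP arrays of that time, corn oil 8 h replicate 2, where the 3' probe set of Actb exceeded the 5' one by 1.46, against at most 0.82 on any other array, a pattern seen with degraded RNA, and corn oil 72 h replicate 1, where neutrophil markers averaged 7.52 and pancreas markers 9.64. In bulk liver, fewer cells of a type and less RNA per cell cannot be told apart.

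Across the 4 times, 6 of 40 differences were called, 4 higher and 2 lower, and they belonged to 3 genes. Aldh3a2 rose at 8, 24 and 72 h, by 2.31-fold, 2.65-fold and 3.69-fold. Aldh9a1, which makes the carnitine precursor gamma-butyrobetaine, rose at 72 h by 1.33-fold. Aldh1b1, a mitochondrial enzyme that oxidises acetaldehyde and other short aldehydes, fell at 2 h and 72 h. At 2 h, 0 of the 10 were higher and 1 was lower, while 0.83% of all genes were called (0.616% higher and 0.214% lower). At 8 h 1 was higher and 0 lower, with 4.13% of all genes called (1.28% higher and 2.86% lower). At 24 h 1 was higher and 0 lower, with 0.297% of all genes called (0.253% higher and 0.044% lower). At 72 h 2 were higher and 1 was lower, with 4.18% of all genes called (1.13% higher and 3.05% lower).

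The plot of differences by compartment shows how the genes lay in each place. In the endoplasmic reticulum and peroxisome, the single gene Aldh3a2 was positive at all 4 times. Of the 4 mitochondrial genes 1 was called lower at 2 h and at 72 h, with list medians of -0.09, -0.08, -0.08 and 0.07 from 2 to 72 h. Of the 4 cytosolic genes 1 was called higher at 72 h, with medians of -0.07, -0.13, -0.05 and -0.07. The median over all 18194 genes was -0.02, -0.02, 0.00 and -0.03. Differences between compartments were not tested.

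**Figure D1:**
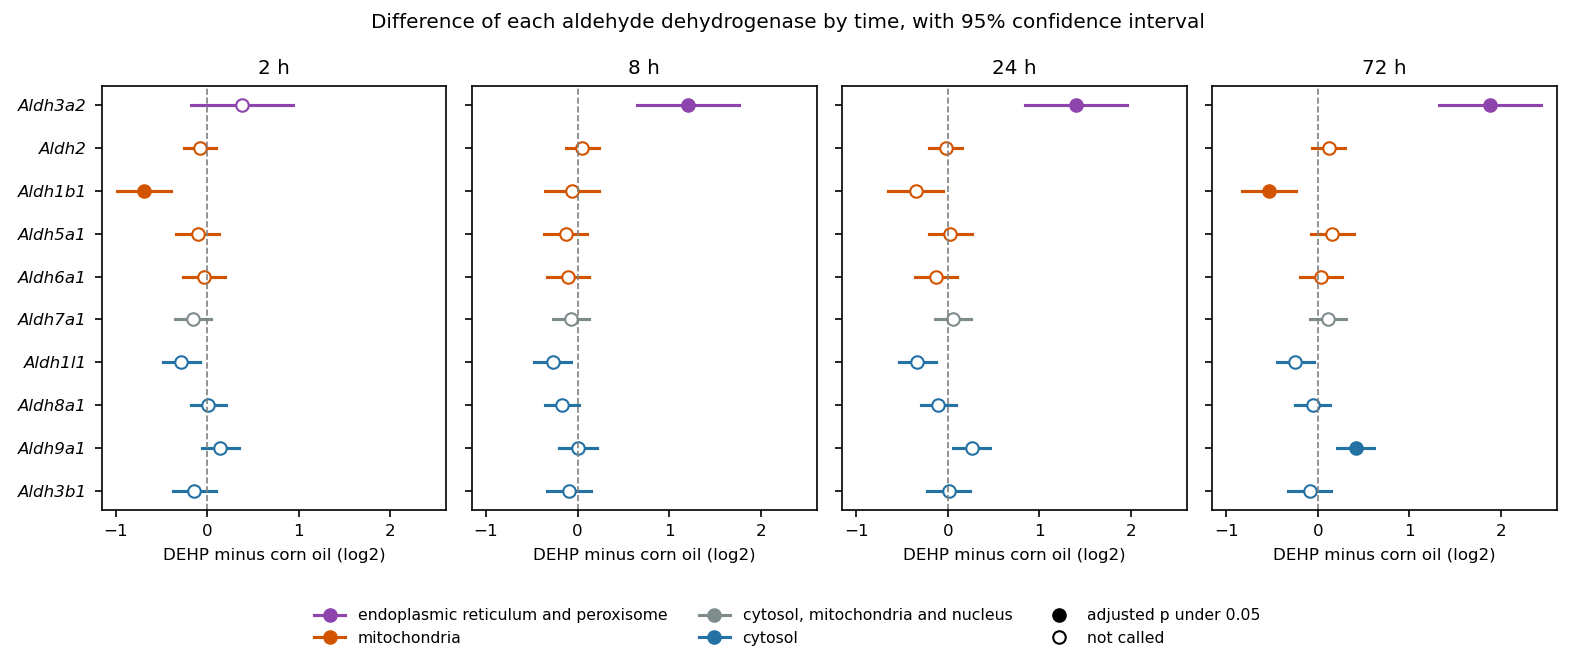
Difference of each of the 10 genes between DEHP and corn oil (x axis, log2) in 4 panels from 2 to 72 h; points are estimates of the linear model, lines are 95% confidence intervals, colours are compartments and filled points are called. Aldh3a2 lies to the right at 8, 24 and 72 h (1.21, 1.40 and 1.88), Aldh1b1 lies to the left at 2 and 72 h (-0.69 and -0.54), and the other filled point is Aldh9a1 at 72 h (0.41).

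Aldh3a2 (probe set 1415776_at) removes fatty aldehydes that come from fatty alcohols, sphingolipids, phytol and omega-hydroxylated fatty acids. At 2 h its log2 signal was 9.71, 9.86 and 10.09 in DEHP livers, against 9.56, 9.57 and 9.42 in corn oil livers, a difference of 0.38 ± 0.27 that was not called (adjusted p = 0.799). The 3 DEHP arrays already lay above the 3 corn oil arrays, by a small margin. At 8 h the signal was 11.56, 10.99 and 11.17 with DEHP, against 9.68, 10.11 and 10.31 with corn oil (1.21 ± 0.27, adjusted p = 0.0099).

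At 24 h Aldh3a2 stood at 10.20, 11.20 and 10.85 with DEHP, against 9.60, 9.53 and 8.90 with corn oil (1.40 ± 0.27, adjusted p = 0.0161). At 72 h it stood at 11.31, 11.21 and 11.13 with DEHP, against 8.51, 9.80 and 9.69 with corn oil (1.88 ± 0.27, adjusted p = 0.00032). The DEHP and corn oil arrays of Aldh3a2 did not overlap at any of the 4 times, while over all genes 11.4%, 18.6%, 13.8% and 28.2% did not overlap at 2, 8, 24 and 72 h. Corn oil 72 h replicate 1 was the low array of its group, and without it the 72 h difference was 1.47 ± 0.23 (adjusted p = 0.00152). The 8 h call was lost without corn oil replicate 1 or DEHP replicate 1 (1.03 and 1.04) and with the Actb gap as a covariate (1.17, adjusted p = 0.0711). Without the 2 arrays numbered 14 the 8 h difference was 1.47 (adjusted p = 0.0166). At 24 h the call ended in 3 of the 6 fits that left out an array of that time: without replicate 3 of corn oil (1.18), and without replicate 2 (1.18) or 3 (1.35) of DEHP. The 72 h call held in each of the 6 fits that left out an array of that time.

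In order of their means, the groups of Aldh3a2 ran from corn oil at 72 h (9.33 ± 0.72, SD, n = 3), 24 h (9.34 ± 0.38) and 2 h (9.51 ± 0.08) through DEHP at 2 h (9.89 ± 0.19) and corn oil at 8 h (10.03 ± 0.32) to DEHP at 24 h (10.75 ± 0.51), 72 h (11.22 ± 0.09) and 8 h (11.24 ± 0.29). Corn oil at 72, 24 and 2 h differed from each other by less than the SD of the 72 h and the 24 h group, and DEHP at 72 h and 8 h by less than the SD of either. Among vehicle livers Aldh3a2 was highest at 8 h, but a test of differences between times in corn oil was not passed (adjusted p = 0.313). Whether the DEHP effect itself differed between the 4 times was tested with an F test, which Aldh3a2 did not pass (adjusted p = 0.124).

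Aldh9a1 (probe set 1436689_a_at) oxidises trimethylaminobutyraldehyde, a step of carnitine synthesis. At 72 h its log2 signal was 12.41, 12.28 and 12.24 in DEHP livers, against 11.77, 11.90 and 12.02 in corn oil livers (0.41 ± 0.10, adjusted p = 0.0206). All 3 DEHP arrays lay above the corn oil arrays. At 24 h the groups were also apart, at 12.30, 12.44 and 12.27 with DEHP, against 12.13, 12.01 and 12.08 with corn oil, but the difference of 0.26 ± 0.10 was not called (adjusted p = 0.48). At 2 and 8 h the arrays overlapped, with differences of 0.14 and 0.01. Leaving out replicate 1 or 2 of either compound ended the 72 h call, and the 6 fits that left out an array of that time gave 0.35 to 0.47. The other probe set of Aldh9a1 gave 0.56 ± 0.14 at 72 h (adjusted p over all probe sets = 0.0456), and 0.44 at 8 h where the chosen one gave 0.01.

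Aldh1b1 (probe set 1451260_at) was read at 8.14, 8.22 and 7.97 with DEHP at 2 h, against 8.79, 8.75 and 8.86 with corn oil (-0.69 ± 0.14, adjusted p = 0.0179). At 72 h it was at 8.42, 8.28 and 8.34 with DEHP, against 8.98, 8.86 and 8.81 with corn oil (-0.54 ± 0.14, adjusted p = 0.0353). The groups did not overlap at either time, and the DEHP means were 0.62 and 0.69 of the corn oil means on the linear scale. At 8 h the groups overlapped (-0.06 ± 0.14), where the corn oil mean of 8.30 ± 0.19 was the lowest of the 4 corn oil means, and at 24 h the difference was -0.35 ± 0.14 (adjusted p = 0.533).

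The calls of Aldh1b1 rest on few arrays. At 2 h the call ended when replicate 1 or 3 of either compound was left out, and the 6 fits gave -0.74 to -0.62. At 72 h it was lost in all 6 fits that left out an array (-0.57 to -0.49) and with quantile normalization (-0.41, adjusted p = 0.0964). Adjusted over all probe sets, the limma p of Aldh1b1 was 0.0284 at 2 h and 0.0541 at 72 h, so that the 72 h difference was not called. The DEHP effect on Aldh1b1 was not called as different between times (F test, adjusted p = 0.259). Its level in corn oil came close to the threshold for differences between times (adjusted p = 0.0511).

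Aldh1l1 (probe set 1424400_a_at) is the cytosolic 10-formyltetrahydrofolate dehydrogenase, an abundant folate enzyme of hepatocytes. It was called at no single time, but it was called in the F test for an effect at any time (adjusted p = 0.00946). Its differences were close to each other, at -0.29, -0.27, -0.33 and -0.25 from 2 to 72 h, each with an SE of 0.10. Its signal was 12.73, 12.83 and 12.85 with DEHP at 8 h, against 13.06, 13.01 and 13.17 with corn oil, and 13.03, 12.87 and 12.68 with DEHP at 24 h, against 13.13, 13.11 and 13.35 with corn oil. The DEHP arrays lay below the corn oil arrays at all 4 times. Over all genes 11.4%, 18.6%, 13.8% and 28.2% did not overlap at 2, 8, 24 and 72 h. At 72 h the margin was small, with a highest DEHP value of 13.197 and a lowest corn oil value of 13.210. The second, dimmer probe set of Aldh1l1 was at -0.49 and -0.41 at 2 and 8 h, but at -0.11 and 0.09 at 24 and 72 h.

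By the F test for an effect at any time, 4 of the 10 genes were called (Aldh3a2, Aldh1b1, Aldh1l1 and Aldh9a1), against 6.46% of all genes. The adjusted p was 2.51e-05 for Aldh3a2, 0.00314 for Aldh1b1 and 0.024 for Aldh9a1. Under an F test for a difference of the effect between times 0 of 10 were called by limma, 3 of them with an unadjusted p under 0.05, and 2.08% of all genes were called. The plot of the 4 genes by array shows these groups.

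**Figure D2:**
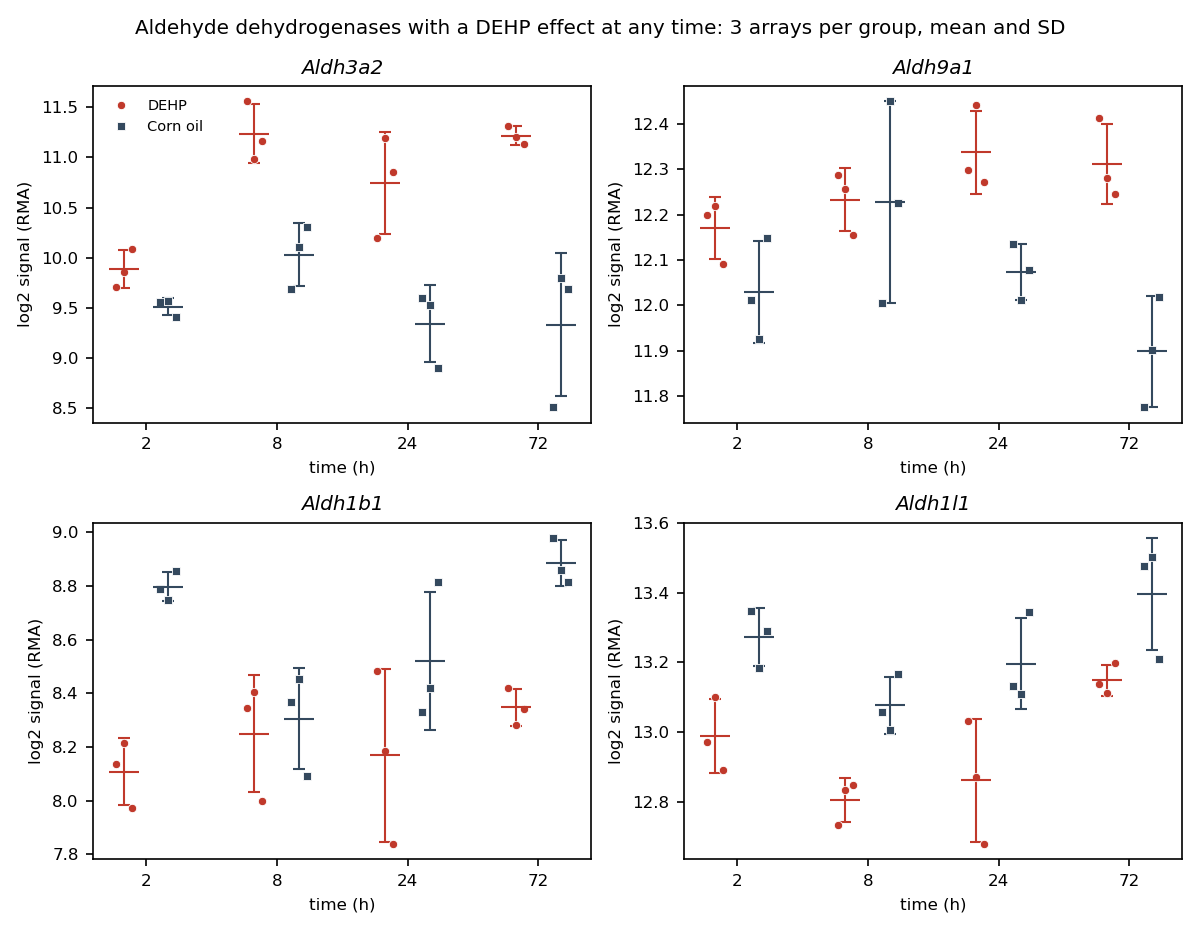
Log2 signal (y axis) of Aldh3a2, Aldh9a1, Aldh1b1 and Aldh1l1 on each array by time (x axis, h), DEHP as red circles left of corn oil as dark squares; horizontal bars are means and whiskers are SD over 3 arrays. The DEHP arrays of Aldh3a2 lie above and those of Aldh1l1 below the corn oil arrays at all 4 times, and the low corn oil array of Aldh3a2 at 72 h (8.51) is visible.

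Signs of other cells moved at the same times as some of these values. At 72 h 2 of 7 macrophage markers were called lower with DEHP by limma, and 6 had an unadjusted p under 0.05. Their median difference was -0.60, and over all genes 3.05% were called lower at that time. The mean log2 signal of the 7 macrophage markers ran from 7.93 to 8.26 in DEHP livers, against 8.42 to 8.75 in corn oil livers. Endothelial markers were called in 0 of 6 cases by limma at 72 h, 2 with an unadjusted p under 0.05, with means of 8.04 to 8.26 with DEHP, against 8.42 to 8.74 with corn oil. At 2 h exocrine pancreas markers ran from 7.55 to 10.74 with DEHP, the highest on replicate 1, against 7.55 to 9.52 with corn oil. At 72 h they ran from 7.33 to 9.16 with DEHP, against 7.65 to 9.64 with corn oil, the highest on replicate 1 of each group. At 2 h stellate cell markers, 0 of 7 called and 2 with an unadjusted p under 0.05, ran from 7.83 to 8.12 with DEHP, against 8.16 to 8.30 with corn oil. Of the neutrophil markers 0 of 5 were called by limma at 2 h, and 0 had an unadjusted p under 0.05. Their means ran from 6.76 to 7.08 with DEHP, against 6.66 to 6.70 with corn oil. The part of all these cells in the values of Aldh1b1 and Aldh9a1 was not tested. Corn oil 72 h replicate 1 was the lowest of its 3 arrays for 7 of the 10 genes. Without it the 72 h difference was 0.35 for Aldh9a1 (adjusted p = 0.0567) and -0.49 for Aldh1b1 (adjusted p = 0.0735).

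The sequences before the starts of the 4 genes called in the F test are shown because PPAR alpha and RXR bind direct repeats of AGGTCA with 1 base between them. The 250 bases before each start in the RefSeq promoter table (GRCm38.p6) were searched on both strands for that repeat (AGGTCA, any base, AGGTCA). The closest match is in capitals, or the first one in the window where several had equally few mismatches. Windows are given 5' to 3' on the gene's own strand: Aldh3a2 at chr11:61267187-61267436 (minus strand), Aldh9a1 at chr1:167349741-167349990 (plus), Aldh1b1 at chr4:45798772-45799021 (plus) and Aldh1l1 at chr6:90550543-90550792 (plus).
Aldh3a2: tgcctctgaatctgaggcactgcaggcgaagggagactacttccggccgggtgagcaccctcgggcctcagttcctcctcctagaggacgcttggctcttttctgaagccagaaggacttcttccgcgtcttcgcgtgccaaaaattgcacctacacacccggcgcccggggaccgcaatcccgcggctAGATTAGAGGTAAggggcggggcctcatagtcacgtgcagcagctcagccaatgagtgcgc
Aldh9a1: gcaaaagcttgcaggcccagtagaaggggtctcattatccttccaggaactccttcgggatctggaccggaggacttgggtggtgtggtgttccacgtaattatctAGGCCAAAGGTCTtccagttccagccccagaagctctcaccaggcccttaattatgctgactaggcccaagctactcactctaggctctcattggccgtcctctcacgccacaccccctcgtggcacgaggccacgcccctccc
Aldh1b1: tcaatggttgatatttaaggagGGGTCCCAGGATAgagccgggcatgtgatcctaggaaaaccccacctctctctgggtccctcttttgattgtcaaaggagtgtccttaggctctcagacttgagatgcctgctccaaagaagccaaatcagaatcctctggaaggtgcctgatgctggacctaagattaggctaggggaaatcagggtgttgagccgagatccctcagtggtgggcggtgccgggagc
Aldh1l1: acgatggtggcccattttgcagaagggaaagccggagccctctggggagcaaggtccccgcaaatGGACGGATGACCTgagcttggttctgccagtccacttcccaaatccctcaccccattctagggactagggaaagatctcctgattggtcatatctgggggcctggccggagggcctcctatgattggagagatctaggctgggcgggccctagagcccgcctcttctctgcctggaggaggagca
The closest match had 3 mismatches in Aldh3a2, 2 in Aldh9a1, 4 in Aldh1b1 and 3 in Aldh1l1. Over 32851 promoter windows of that length, 3.24% held a match with at most 2 mismatches, 21.3% with at most 3 and 74.5% with at most 4. A match with 2 mismatches also stood in 1 of the 2 windows of Aldh6a1, which was not called. Windows of Aldh2 and Aldh7a1, also not called, are not reported here. The hexamer AGGTCA alone, found in 14% of windows, occurred in the window of Aldh1l1 and not in those of Aldh3a2, Aldh9a1 and Aldh1b1. These are letter matches in short windows and not measured binding sites.

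By a fixed rule, the 3 named genes with the highest Pearson correlation over the 24 arrays were looked up for each of the 4 genes, as a description of arrays that share compound, time and handling. For Aldh3a2 they were Hadhb, a subunit of the mitochondrial trifunctional protein of fatty acid oxidation (r = 0.961), Hsd17b4, a bifunctional enzyme of peroxisomal beta-oxidation (0.96), and Cmbl, a hydrolase (0.938). For Aldh9a1 they were the chemokine Ccl25 (0.842) and the peroxisomal thiolases Acaa1b (0.818) and Acaa1a (0.785), whose sequences are near-identical so that their probe sets may share signal. For Aldh1b1 the closest was Aldh1l1 (0.801), followed by Tlcd2 (0.767) and Antkmt (0.766). For Aldh1l1 they were the glucokinase regulator Gckr (0.855), the glycine methyltransferase Gnmt (0.848) and the sulfide oxidase Sqor (0.846).

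The other 6 genes, Aldh2, Aldh5a1, Aldh6a1, Aldh7a1, Aldh8a1 and Aldh3b1, had no call at any time in their chosen probe sets. For Aldh2 this depends on the probe set: 1434988_x_at in place of the brightest one gave 0.60 ± 0.17 at 72 h, which was called (adjusted p = 0.0429). Adjusted over all probe sets, its p was 0.0645 and it was not called. In the chosen probe sets their 24 differences ran from -0.17 to 0.16, the lowest adjusted p was 0.403, and all their 95% confidence intervals lay between -0.38 and 0.39. The arrays of the 2 compounds did not overlap in 2 of the 24 cases, while over all genes the share without overlap was 11.4%, 18.6%, 13.8% and 28.2% at 2, 8, 24 and 72 h. These intervals leave room for modest changes, and the calls do not show that the genes stayed the same.

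Among the mitochondrial genes, Aldh2, the main acetaldehyde-oxidising enzyme of liver, ran from 13.09 to 13.28 over the 12 DEHP arrays, against 12.99 to 13.33 over the corn oil arrays. Its largest difference was at 72 h, at 13.27, 13.23 and 13.23 with DEHP, against at most 13.21 with corn oil (0.12 ± 0.09, adjusted p = 0.459), where the arrays did not overlap. Aldh5a1, which oxidises succinic semialdehyde in the breakdown of GABA, was at -0.11, -0.13, 0.03 and 0.16 from 2 to 72 h. Aldh6a1, a CoA-dependent enzyme of valine and thymine breakdown, was at -0.04, -0.10, -0.13 and 0.03, and at 24 h its DEHP arrays (11.36, 11.41 and 11.34) lay below the corn oil arrays (11.46, 11.56 and 11.49).

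Aldh7a1, antiquitin of lysine breakdown, ran from 11.65 to 12.20 with DEHP, against 11.78 to 12.24 with corn oil, with differences from -0.16 at 2 h to 0.11 at 72 h. Its other, dimmer probe sets had the opposite sign at 2 h (0.10 and 0.30) and at 8 h (0.31 and 0.22, against -0.07 in the chosen one), and none of these was called. In the cytosol, Aldh8a1, an enzyme of the kynurenine pathway of tryptophan, had its largest difference at 8 h (-0.17 ± 0.09, adjusted p = 0.403), where its other probe set was at 0.16. Aldh3b1, which oxidises lipid-derived aldehydes, ran from 6.75 to 7.40 with DEHP, against 7.01 to 7.31 with corn oil, and its differences lay between -0.14 and 0.01.

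**Figure D3:**
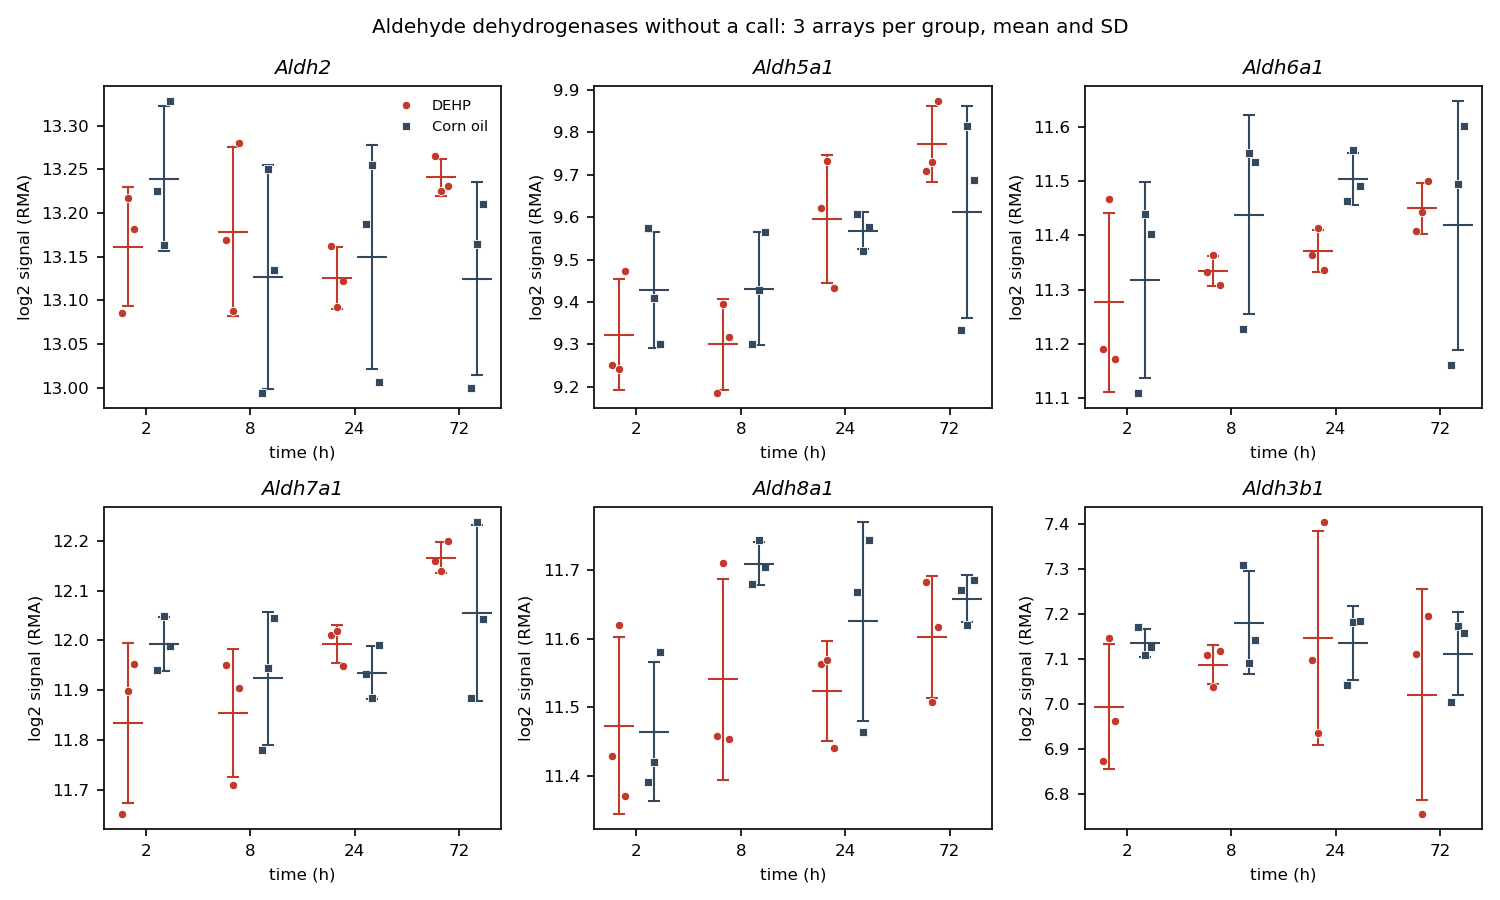
Log2 signal (y axis, a separate range in each panel) of the 6 genes without a call on each array by time (x axis, h), DEHP as red circles left of corn oil as dark squares, with means and SD over 3 arrays. The groups overlap in all panels except Aldh2 at 72 h and Aldh6a1 at 24 h, and corn oil 72 h replicate 1 is the lowest of its group for Aldh2, Aldh5a1, Aldh6a1, Aldh7a1 and Aldh3b1.

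In corn oil livers, 0 of the 10 genes differed between times by the F test of limma, 3 had an unadjusted p under 0.05 (Aldh1b1, Aldh1l1 and Aldh9a1), and 3.55% of all genes were called. Aldh1b1 averaged 8.80 ± 0.05 at 2 h, 8.30 ± 0.19 at 8 h, 8.52 ± 0.26 at 24 h and 8.88 ± 0.08 at 72 h in corn oil. Aldh1l1 also had its lowest corn oil mean at 8 h (13.08 ± 0.08) and its highest at 72 h (13.40 ± 0.16). Aldh9a1 went the other way, with its highest corn oil mean at 8 h (12.23 ± 0.22) and its lowest at 72 h (11.90 ± 0.12).

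The enzymes around these genes were counted over fixed lists. Over all genes 0.83%, 4.13%, 0.297% and 4.18% were called at 2, 8, 24 and 72 h. Of 10 other aldehyde dehydrogenases, including those of retinoid metabolism, 1 was called higher at 8 h, and 2 higher and 1 lower at 72 h. Aldh1a7, a close relative of the retinal dehydrogenase Aldh1a1, rose by 0.39 ± 0.08 at 8 h (adjusted p = 0.00738) and by 0.30 ± 0.08 at 72 h, and Aldh1a1 rose by 0.30 ± 0.08 at 72 h. The sequences of Aldh1a1 and Aldh1a7 are much alike, so that their probe sets may share signal. Aldh16a1, an atypical family member, changed by -0.40 ± 0.09 at 72 h (adjusted p = 0.0144).

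Enzymes that make or remove aldehydes by other routes were called only downward, 1 of 14 at 2 h and 3 of 14 at 8 h. At 24 and 72 h 0 of 14 were called by limma, with 2 and 4 at an unadjusted p under 0.05. Over all genes 0.214% were called lower and 0.616% higher at 2 h, and 2.86% lower and 1.28% higher at 8 h. The 3 called at 8 h were the alcohol dehydrogenase Adh4 (-0.65 ± 0.15), the aldehyde oxidase Aox3 (-0.61 ± 0.14) and the aldehyde reductase Akr7a5 (-0.46 ± 0.10). At 2 h it was the main liver alcohol dehydrogenase Adh1 (-0.31 ± 0.07, adjusted p = 0.0282), which falls outside the naming rule and was named after its value was seen. Among 8 measured sources of fatty aldehydes or their precursors, the substrates of Aldh3a2, 3 were higher and 1 lower at 8 h. The omega-hydroxylase Cyp4a14 rose at all 4 times, by 4.86 ± 0.40 at 24 h and 5.70 ± 0.40 at 72 h. At 8 h the peroxisomal lyase Hacl1 rose by 0.60 ± 0.11 and Cyp4f14 changed by -0.52 ± 0.12. Outside the naming rule, Cyp4f15 rose by 0.48 at 8 h, and the sphingosine phosphate lyase Sgpl1 changed by -0.42 at 72 h (adjusted p = 0.0455).

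Around Aldh9a1, 3 genes of carnitine synthesis and uptake were measured. Slc22a5, the carnitine transporter, rose by 1.66 ± 0.19 at 2 h and 1.51 ± 0.19 at 8 h and was at 0.37 at 24 and 72 h. Tmlhe, the first enzyme of carnitine synthesis, rose by 0.45 ± 0.12 at 8 h (adjusted p = 0.0338), and Bbox1, the last enzyme, was at -0.25, -0.15, 0.00 and 0.06. Aldh9a1 itself was called at 72 h, when 0 of these 3 were called by limma and none had an unadjusted p under 0.05.

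The lists around the amino acid and folate enzymes stand beside 0.83%, 4.13%, 0.297% and 4.18% of all genes called from 2 to 72 h. Of 14 genes of valine and thymine breakdown, 0 were called at any time by limma, with 3, 4, 2 and 3 at an unadjusted p under 0.05. Lysine breakdown had 1 of 5 higher and 1 lower at 8 h, the entry enzyme Aass (0.51 ± 0.11) and the pipecolate oxidase Pipox (-0.48 ± 0.12). Tryptophan breakdown had 1 of 6 higher at 8 h, Tdo2 (0.34 ± 0.08), and 1 lower at 72 h, Kynu (-0.41 ± 0.10). Of 7 folate genes 1 was lower at 2 h, Shmt1, a serine hydroxymethyltransferase (-0.58 ± 0.13, adjusted p = 0.0306), and of 3 genes of GABA metabolism 0 were called by limma and 0 had an unadjusted p under 0.05. The plot of these lists shows their spread.

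**Figure D4:**
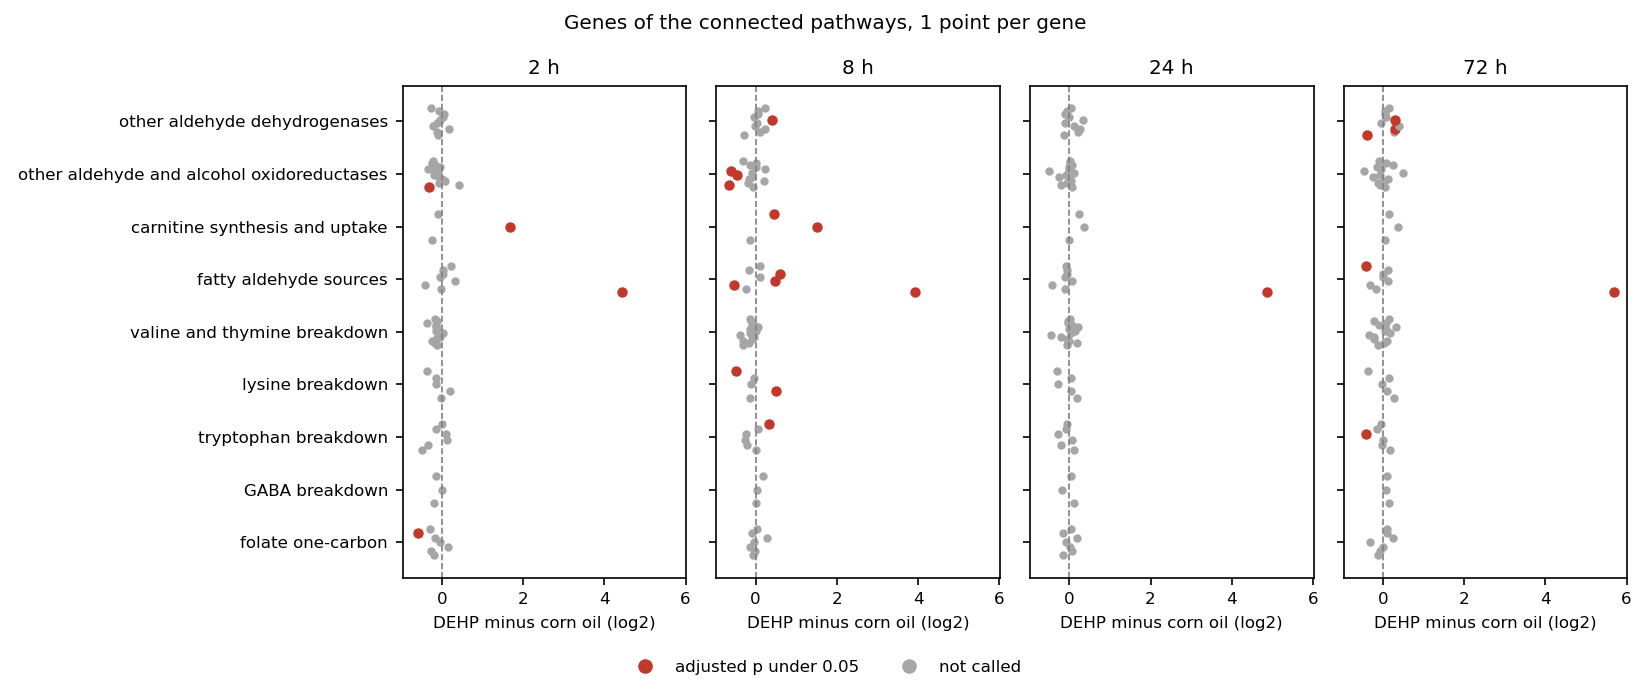
Difference between DEHP and corn oil (x axis, log2) for each gene of 9 lists (rows, 1 point per gene) in 4 panels from 2 to 72 h, with called genes in red and the others in grey. Most points lie near 0, the far right point is Cyp4a14 (4.86 at 24 h and 5.70 at 72 h), and Slc22a5 stands out at 2 and 8 h (1.66 and 1.51).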

How the data were processed

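Messenger RNA of 24 mouse liver samples was measured on Affymetrix arrays of 45101 probe sets. The deposited values are log2 signals computed by the authors with RMA, per the submitters' processing notes; its version is not given in the sources used here. They range from 2.84 to 14.55.

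Probe sets were named through the platform annotation: 34958 had 1 symbol, 932 several and 9211 no annotation row. Each of 18194 genes was read from its probe set with the highest mean. R 4.3.3 and limma 3.58.1 fitted 8 group means over all arrays (16 residual and 6.21 prior degrees of freedom), with empirical Bayes tests within each time point, F tests, and Benjamini-Hochberg adjustment over all genes, as tested on simulated data. Groups came from the labels alone.

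The genes, lists and alternatives were chosen with earlier results of these data known. The naming rule covered the 10 genes, at most 3 called genes a list, and 3 correlated genes for each gene called in the F test. Listed genes without a probe set of a single symbol were not analysed here.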

Additional observations from a re-analysis of the deposited data

How the results depend on the processing

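The number of the 10 genes called was 1, 1, 1 and 3 at 2, 8, 24 and 72 h. With an adjusted p under 0.01 it was 0, 1, 0 and 1. At 24 h it was 0 with a variance trend and robust estimation and 0 with the 6 arrays of that time alone, and at 8 h it was 0 with the Actb gap as a covariate. Leaving out each array in turn gave 0 to 1 at 2, 8 and 24 h and 1 to 3 at 72 h, 3 to 4 (against 4) for an effect at any time, 0 to 0 for a difference of the effect between times and 0 to 1 (against 0) for differences between times in corn oil. That last count was also 1 with the replicate block, a block that sets first replicates apart, only genes over the 40th percentile, the variance trend, array weights, quantile normalization and the Actb covariate. The F test call of Aldh9a1 was lost without corn oil 72 h replicate 1 or 2 or DEHP 72 h replicate 1 or 2 (adjusted p up to 0.0718) and at an adjusted p under 0.01; those of Aldh3a2, Aldh1b1 and Aldh1l1 held in all 24 fits without 1 array and in the 12 other settings. The cause of these losses was not tested. Over the 10 genes, the 4 times and the alternative settings, 47 recomputed values had the opposite sign, in each case of a difference that was not called in either fit. Deviations of same-numbered arrays correlated with r from -0.35 to 0.14, over 0.1 in 1 of 12 pairs, and 3 of 12 DEHP arrays correlated best with their own number. These values show no clear pairing by replicate number, but with 3 arrays in each group they cannot exclude it. The replicate block kept the counts at 1, 1, 1 and 3. Over all genes the counts were 151 at 2 h (62 to 239 across the alternatives), 752 at 8 h (327 to 1106), 54 at 24 h (21 to 97) and 760 at 72 h (176 to 2749). Without detection calls, dim signals were checked by that percentile filter alone.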

Other observations

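The probe sets of Aldh2 did not give the same values. The brightest, used above, was at 0.12 at 72 h. In its place, probe set 1434988_x_at gave 0.60 ± 0.17 at 72 h, with an adjusted p over the 18194 genes of 0.0429. Adjusted over all probe sets, its p was 0.0645 and it was not called. Its means were 9.08 on the DEHP arrays and 8.47 on the corn oil arrays. Probe set 1434987_at gave 0.84 at 72 h (adjusted p over all probe sets = 0.102). The remaining probe sets were at 0.23 and -0.11 at 72 h. At the other times the probe set 1434988_x_at was at -0.12, 0.02 and 0.06.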
